A study of Arabidopsis thaliana with 2 samples.

Results

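A group of 8 auxin genes was followed in Arabidopsis thaliana stems in which AtC3H14, a CCCH zinc finger gene, was expressed from the 35S promoter. They are 3 auxin-conjugating GH3 genes (WES1, GH3.1 and GH3.3), 4 Aux/IAA repressor genes (IAA18, IAA20, IAA29 and IAA30) and the small auxin-induced gene SAUR10. Each was taken where a probe set of the Affymetrix ATH1 array names that gene and no other in the platform annotation, which gave 8 probe sets out of 22746 that are not array controls. The samples were 1 stem sample of 35S::AtC3H14 plants and 1 of wild-type plants, each on 1 array, so no value has a replicate, an error or a test. Both came from Columbia (Col-0) plants aged 30 days, kept on soil at 23 °C under 16 h of light and 8 h of dark, and the stem was cut from the base to the third internode. The 35S promoter is a viral promoter active in most plant tissues, and the labels do not say how many plants or which transgenic line made up a sample. Unlabelled differences between the samples in plant, stage or harvest cannot be told apart from genotype.

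Auxin, chiefly indole-3-acetic acid, controls elongation, vascular patterning and cambial activity in the stem. Aux/IAA proteins bind auxin response factors and keep their target genes off until auxin makes the TIR1/AFB receptors mark the Aux/IAA proteins for destruction. GH3 enzymes join auxin to amino acids and so lower the free hormone, and transcripts of many GH3, Aux/IAA and SAUR genes are themselves raised by auxin, which makes these families both parts of the pathway and readouts of it.

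The values are MAS5 signals, brightness on a linear scale, and fold differences are 35S::AtC3H14 over wild type. A floor of 104.0, the 40th percentile of all signals, limited what was read. A gene above it on both arrays has a ratio. A gene above it on 1 array has only a bound, written as "at least". A gene below it on both has none. AtC3H14 (AT1G66810) itself had a signal of 8655 in 35S::AtC3H14 stems and 244 in wild-type stems, 35.5-fold higher, in the direction of the label. A size of 2-fold stands in for a test. Of 14469 probe sets with a ratio or bound, 763 (5.27%) were higher by 2-fold or more in 35S::AtC3H14 stems and 836 (5.78%) lower by as much. That split depends on array scaling. It was 613 higher and 1041 lower with each array centred on its median, and 257 higher and 2285 lower with the arrays scaled to the 18 spiked hybridization controls, whose signals averaged 1.44-fold higher on the 35S::AtC3H14 array. The median log2 ratio over all measured probe sets was 0.05 as deposited, -0.05 with median centring and -0.44 with the hybridization controls.

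Of the 8 genes, WES1 was at least 2-fold higher in 35S::AtC3H14 stems, and none with a ratio or bound was at least 2-fold lower as deposited. IAA18 was the only other with a signal above the floor on both arrays, and it was lower in 35S::AtC3H14 stems by less than 2-fold. GH3.3 and IAA29 were above the floor in 35S::AtC3H14 stems alone. GH3.1, IAA20, IAA30 and SAUR10 were below it in both. GH3.3 and IAA29 entered only through the array where they were higher, so their direction follows from the floor, and no count over the 4 measured genes is read as support for a shared direction. Their median log2 ratio, with bounds entered at the bound, was 0.49, against 0.05 over all measured probe sets. It is the midpoint of the bounds of GH3.3 and IAA29, and its sign follows from the floor in the same way. The median bound of the 1045 probe sets that reached the floor on the 35S::AtC3H14 array alone was 0.44.

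**Figure D1:**
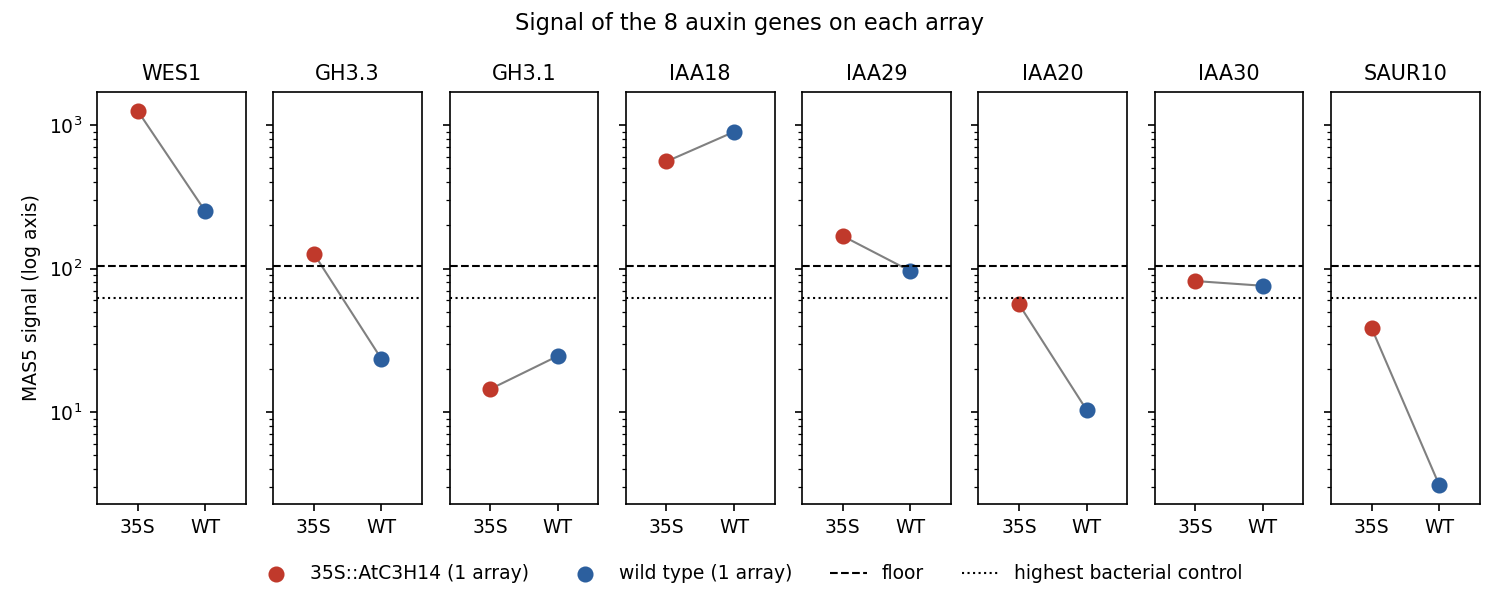
MAS5 signal (log axis) of each of the 8 genes on the 35S::AtC3H14 array (red, left) and the wild-type array (blue, right), 1 array each. The floor of 104.0 is dashed. The dotted line is the highest signal, 62.4, of the Bacillus control probe sets (the bacterial controls of the text). WES1 and IAA18 lie above the floor on both arrays and slope in opposite directions, and GH3.1, IAA20, IAA30 and SAUR10 lie below it on both.

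Among the conjugating enzymes, WES1 (AT4G27260, also GH3.5) makes amino acid conjugates of auxin and also acts on salicylic acid, and plants in which it is overactive are dwarfed. Its signal was 1260 in 35S::AtC3H14 stems and 251 in wild-type stems, 5.01-fold higher, a log2 ratio of 2.33. Both signals were clear of the floor, at 12.1 times and 2.42 times its value. As a yardstick, probe sets that name one and the same gene differed in log2 ratio with a pooled SD of 0.35 (123 probe sets, 60 genes). This covers disagreement among probe sets on these arrays and none of the variation from plant to plant or extraction to extraction. The WES1 log2 ratio was 6.64 times that SD. Of the 12826 probe sets with a ratio from both arrays, 28 had a higher one than WES1. WES1 was chosen with earlier results of these data known, so neither value is independent support. The log2 ratio of WES1 was 1.80 with the arrays scaled to the hybridization controls, where the median of all probe sets was -0.44. WES1 was at least 2-fold higher under each alternative processing that was run. With a floor at the 60th percentile (308.5) its wild-type signal lay below the floor. That alternative gave only a bound, 2.03 in log2, whose direction follows from that floor.

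GH3.3 (AT2G23170) encodes a close relative of WES1 that also conjugates auxin to amino acids. Its signal was 127 in 35S::AtC3H14 stems and 23.4 in wild-type stems, and the wild-type value lay below the floor. It was also within the range of 27 control probe sets for Bacillus transcripts, the highest of which gave 62.4. These are called the bacterial controls here and do not include the spiked hybridization controls. The bound is at least 1.22-fold higher, a log2 value of 0.29. The raw signals differ 5.42-fold, but the size of that difference rests on the low wild-type signal. Under a floor at the 60th percentile, or with the arrays scaled to the hybridization controls, GH3.3 lay below the floor on both arrays and had no bound.

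GH3.1 (AT2G14960), a further auxin-amido synthetase, had signals of 14.4 in 35S::AtC3H14 stems and 24.6 in wild-type stems. Both lay below the floor and below the highest bacterial control, so no direction is given for it.

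Among the Aux/IAA repressors, IAA18 (AT1G51950) is known from stabilised mutant forms that disturb embryo patterning and lateral root formation. Its signal was 558 in 35S::AtC3H14 stems and 898 in wild-type stems, a log2 ratio of -0.69 and 1.61-fold below wild type. This is under 2-fold. In units of the SD between probe sets of one gene it was -1.96, and 11.3% of the 12826 probe sets with a ratio lay as low or lower. With the arrays scaled to the hybridization controls the log2 ratio was -1.21, past 2-fold, where the median of all probe sets was -0.44. In the other alternatives IAA18 kept a log2 ratio between -0.79 and -0.60.

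IAA29 (AT4G32280), an Aux/IAA gene raised by shade through PIF transcription factors, had a signal of 169 in 35S::AtC3H14 stems and 96.1 in wild-type stems. The wild-type signal was just below the floor, at 0.92 times its value, which gives a bound of at least 1.62-fold higher, a log2 value of 0.70. The raw signals differ 1.75-fold, so both the bound and the raw ratio lie under 2-fold. The bound was 0.17 in log2 with the hybridization-control scaling.

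IAA20 (AT2G46990) and IAA30 (AT3G62100) encode related Aux/IAA proteins that lack the conserved degron by which auxin triggers the destruction of other family members. IAA30 had signals of 81.9 in 35S::AtC3H14 stems and 75.9 in wild-type stems, above the highest bacterial control on both arrays but below the floor on both. IAA20 had signals of 56.3 in 35S::AtC3H14 stems and 10.3 in wild-type stems, both within the bacterial control range. The pair therefore has no ratio, and their raw signals do not show a common pattern, 1.08-fold apart for IAA30 and 5.45-fold apart for IAA20.

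SAUR10 (AT2G18010) belongs to the small auxin-up RNA family and is known as a gene that the MADS-domain factor FRUITFULL holds down in stems. Its signal was 38.5 in 35S::AtC3H14 stems and 3.1 in wild-type stems. The raw signals differ 12.4-fold, the widest raw difference of the 8 genes, but both lie below the floor and below the highest bacterial control.

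How far raw ratios of such dim probe sets can be read was measured on the same arrays. Of 8277 probe sets below the floor on both arrays, 27.5% had a raw signal at least 2-fold higher on the 35S::AtC3H14 array and 16.6% at least 2-fold lower. A raw ratio above that of IAA20 was found in 665 of them, and one above that of SAUR10 in 145. Of the 27 bacterial control probe sets, 4 were at least 2-fold higher on the 35S::AtC3H14 array, by up to 4.89-fold, and 5 at least 2-fold lower, by up to 14.8-fold. With no floor, 4 of the 8 genes (WES1, GH3.3, IAA20 and SAUR10) were higher by 2-fold or more and 0 lower by as much, against 15.1% and 10.6% of all 22746 probe sets. For 3 of these 4 genes the wild-type signal lay within the bacterial control range.

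**Figure D2:**
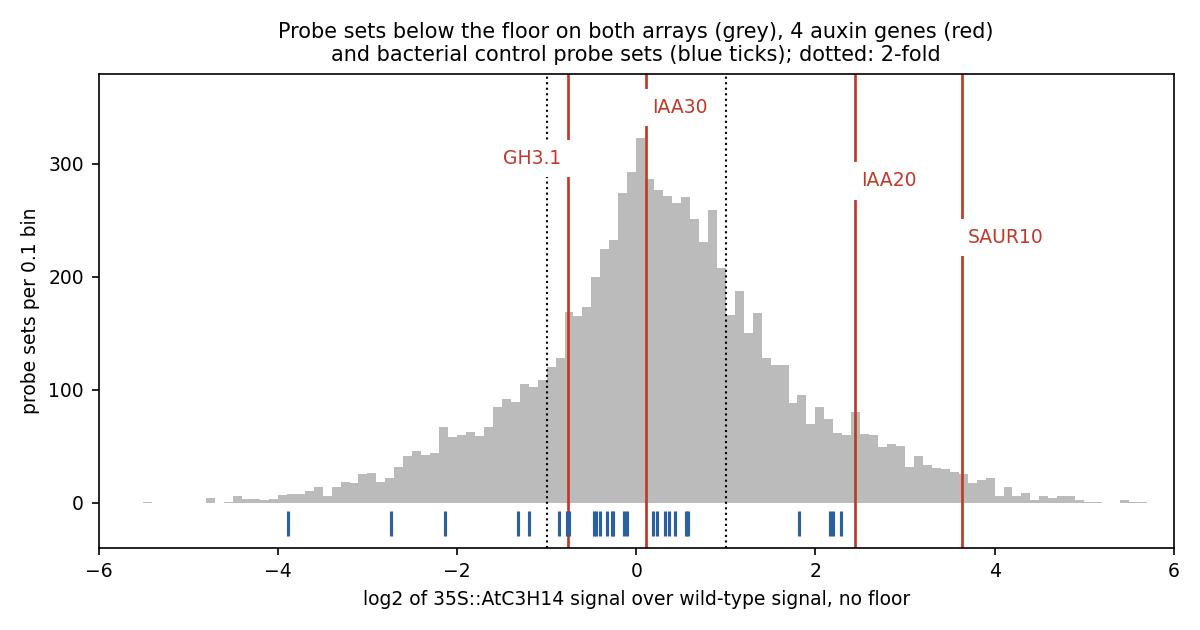
Histogram of raw log2 ratios (35S::AtC3H14 over wild type, no floor, bins of 0.1) of the 8277 probe sets below the floor on both arrays, with 4 auxin genes as red lines, the 27 bacterial control probe sets as blue ticks and 2-fold as dotted lines. IAA30 and GH3.1 lie inside 2-fold, IAA20 just beyond the highest bacterial control, and SAUR10 further out, with 145 probe sets above it.

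The opposite directions of WES1 and IAA18 were compared within the arrays, which takes array scaling out of the comparison. WES1 stood 8.06-fold above IAA18 in its change, a difference in log2 ratio of 3.01, where disagreement among probe sets gives an SD of 0.50 for such a difference. That SD is technical and holds no variation between plants. Both genes were chosen with earlier results of these data known. Scaling of a whole array moves both genes alike and leaves the difference at 3.01 by arithmetic, and it was 2.54 with a pseudocount equal to the floor. The difference describes these 2 samples and does not fix the change of either transcript. In bulk stem RNA, fewer cells of a type and less RNA per cell cannot be told apart.

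**Figure D3:**
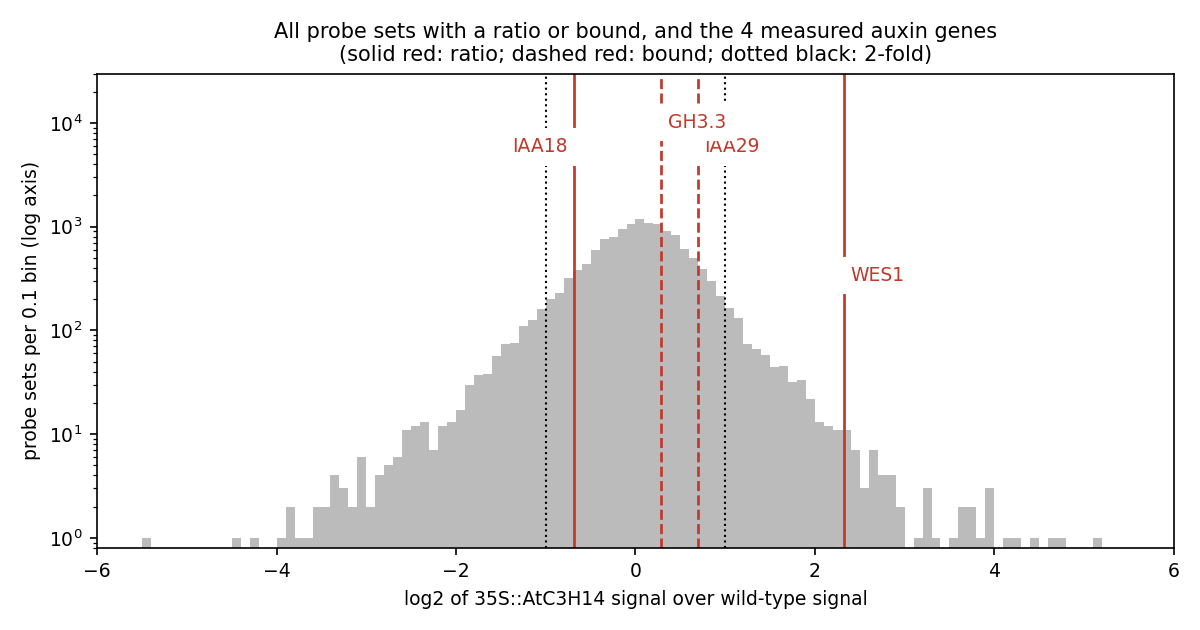
Histogram (log axis, bins of 0.1) of the log2 ratio of 35S::AtC3H14 over wild type for all 14469 probe sets with a ratio or bound, with WES1 and IAA18 at their ratios (solid red), GH3.3 and IAA29 at their bounds (dashed red) and 2-fold as dotted lines. WES1 at 2.33 lies in the upper tail, and IAA18 lies within 2-fold. The bounds of GH3.3 and IAA29 are drawn within 2-fold, but a bound sets no upper limit on the difference.

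Other genes of auxin synthesis, conjugation, transport, perception and early response were read from a list of 201 entries that includes the 8 genes. Of these, 25 had a probe set naming them alone, 10 of which had a ratio or bound, and 2 were at least 2-fold higher (WES1 and GH3.9) and 0 at least 2-fold lower, against 5.27% and 5.78% of all measured probe sets. GH3.9 has only a bound and entered through the array where it was higher, so it could not have counted as lower. With 10 genes measured, nothing is read from the 2 or the 0. The median log2 ratio of the 10 was 0.11, and it was -0.07 for the 6 that are not among the 8 genes, against 0.05 over all measured probe sets. Of the 10, 6 were entered at a bound, and of the 6, 4 were. The direction of a bound follows from the floor, so nothing is read from either median. In the annotation used, genes of auxin transport, the auxin receptors and the auxin response factors had no probe set naming 1 gene. They were not analysed here. That annotation left 8730 of the 22746 probe sets unnamed and 176 of the 201 entries without a probe set. A gene missing here may therefore still have a probe set on the array.

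In the GH3 family beside WES1, GH3.9 (AT2G47750), which acts in root growth, had a signal of 226 in 35S::AtC3H14 stems and 97.7 in wild-type stems, a bound of at least 2.17-fold higher. The bound was 1.51-fold with the hybridization-control scaling, the ratio was 1.64 with a pseudocount equal to the floor, and GH3.9 lay below a floor at the 60th percentile on both arrays. Like GH3.3 and IAA29 it was above the floor on the 35S::AtC3H14 array alone, so its direction follows from the floor. GH3.17 (AT1G28130), which conjugates auxin mainly to glutamate, had signals of 116 in 35S::AtC3H14 stems and 96.8 in wild-type stems, a bound of at least 1.12-fold higher. The direction of GH3.17 follows from the floor in the same way. Of the 5 GH3 probe sets, WES1 alone was above the floor in wild-type stems.

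Of the 7 Aux/IAA probe sets, IAA18 and IAA29 were measured, and IAA31, IAA33 and IAA34 lay below the floor on both arrays beside IAA20 and IAA30. HAT2 (AT5G47370), an auxin-induced homeodomain gene, had signals of 746 in 35S::AtC3H14 stems and 715 in wild-type stems, a log2 ratio of 0.06. SAUR58 (AT1G43040) had signals of 8.90 in 35S::AtC3H14 stems and 154 in wild-type stems, a bound of at least 1.48-fold lower. Its raw signals differ 17.3-fold, and the 35S::AtC3H14 value lies within the bacterial control range. YUC2 (AT4G13260), a flavin monooxygenase of auxin synthesis, had signals of 98.8 in 35S::AtC3H14 stems and 119 in wild-type stems, a bound of at least 1.14-fold lower. SAUR58 and YUC2 were above the floor on the wild-type array alone, so their direction follows from the floor. AT1G14130, named in the gene table by its locus code alone, had signals of 372 in 35S::AtC3H14 stems and 509 in wild-type stems, 1.37-fold below wild type. Of the measured early response genes, HAT2 had a ratio under 2-fold, and the bound of SAUR58 does not show on which side of 2-fold it lies.

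**Figure D4:**
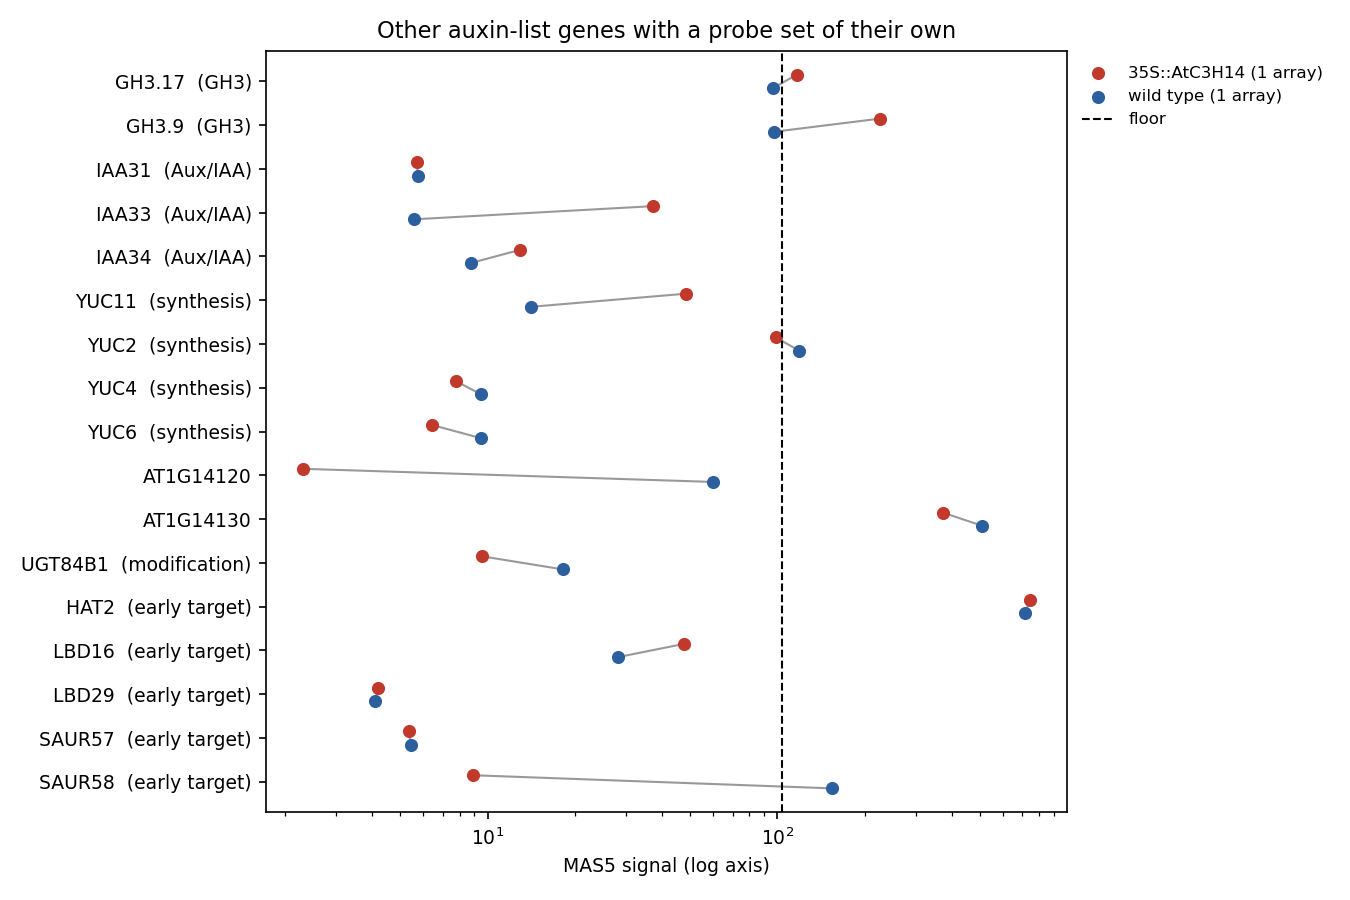
MAS5 signal (log axis) on the 35S::AtC3H14 array (red) and the wild-type array (blue), 1 array each, of the 17 other list genes with a probe set of their own, with the floor of 104.0 dashed. GH3.9 and GH3.17 cross the floor upward, SAUR58 and YUC2 cross it downward, and 11 genes stay below it on both arrays.

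The genes nearest to WES1 and IAA18 in signal over the 2 arrays were found among 986 probe sets above the floor that name 1 gene with a symbol, by Euclidean distance in log2 signal. For WES1 they were ATPMEPCRD at 0.04, with signals of 1230 in 35S::AtC3H14 stems and 253 in wild-type stems, STZ at 0.53 and Cpn60beta2 at 0.57. For IAA18 they were LPA2 at 0.06, SIS at 0.09 and NRPB6B at 0.12. With 2 arrays this likeness rests on 2 values a gene, and the distance mixes the brightness of different probes with the change between arrays.

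Markers of the tissue were read beside these genes, and the annotation used gave 8 of 25 a probe set of their own. The green-tissue genes PRK, RCA and LHCB4.1 summed to 36622 in 35S::AtC3H14 stems and 38276 in wild-type stems, with log2 ratios of 0.09, 0.04 and -0.32. The xylan genes IRX10 and IRX15 of wall-forming cells summed to 5307 in 35S::AtC3H14 stems and 6025 in wild-type stems, with log2 ratios of -0.02 and -0.45. The wax ester synthase gene WSD1 of the epidermis had a signal of 466 in 35S::AtC3H14 stems and 11.3 in wild-type stems, at least 4.48-fold higher. PYK10, a beta-glucosidase gene typical of roots, had a signal of 56.4 in 35S::AtC3H14 stems and 614 in wild-type stems, at least 5.90-fold lower. The flower gene A9 was below the floor on both arrays. The epidermis and the root were each read from 1 gene. Whether tissue make-up differed between the samples, and whether that enters the values of WES1 and IAA18, was not tested.

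**Figure D5:**
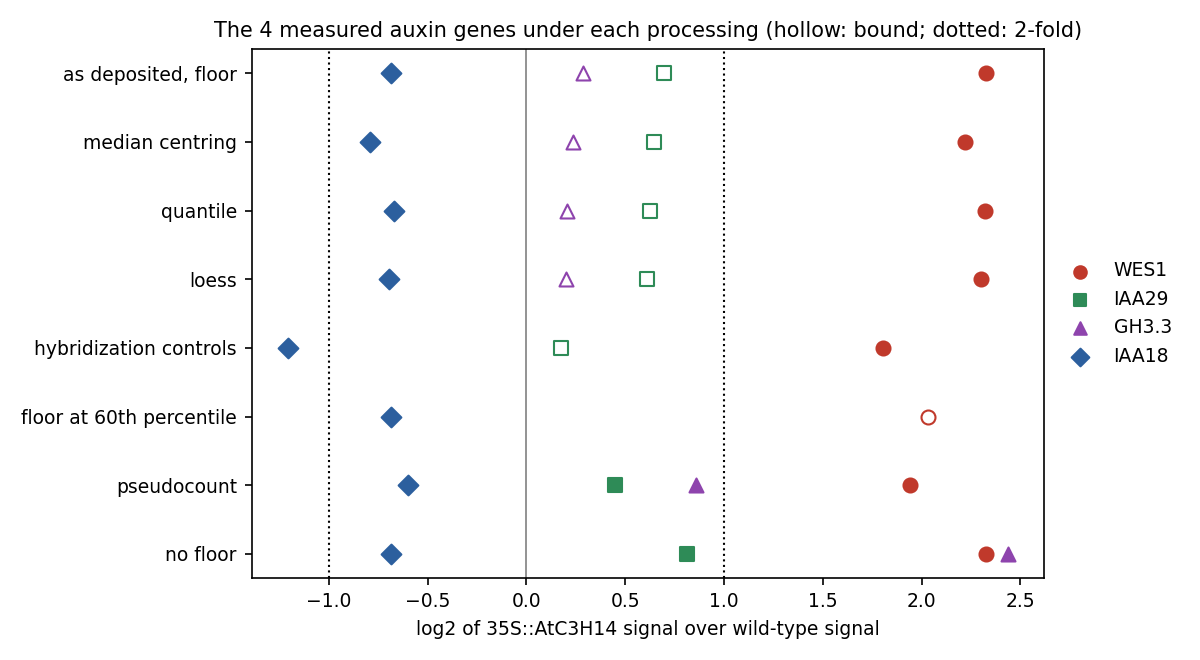
Log2 ratio of 35S::AtC3H14 over wild type for WES1, IAA29, GH3.3 and IAA18 as deposited with the floor and under 7 alternatives, with bounds as hollow symbols, ratios as filled ones and 2-fold as dotted lines. WES1 stays between 1.80 and 2.33, IAA18 between -1.21 and -0.60, and GH3.3 moves to 2.44 with no floor.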

How the data were processed

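The authors deposited 1 linear intensity per probe set and array, which per the submitters' processing notes came from MAS5. Neither its version nor a genome build is given in the sources used here, and coordinates are left out. Of 22810 probe sets, 64 are array controls. Names came from the platform annotation and the TAIR10.1 gene table: 13513 named 1 gene, 503 several and 8730 are unnamed here. SAUR10 was matched by its locus code. Signals below the floor were set to it and log2 ratios taken. With 1 array per group there is no test, and the number of arrays limits the precision. Alternatives were median centring, quantile normalization, loess (span 0.4), scaling to hybridization controls, no floor, a floor at the 60th percentile, a pseudocount equal to the floor, and 3-fold. Scaling alternatives kept the same floor. Named genes were the 8 genes, AtC3H14, the measured auxin-list genes, and the 3 genes nearest in signal to each gene with a ratio. GH3.9 and others were named by that rule; IAA31, IAA33, IAA34 and the markers were named after their values were seen. The 8 genes and lists were chosen with earlier results of these data known. Python 3.11.15, numpy 2.4.6, pandas 2.3.3 and statsmodels 0.14.6 were used.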

Additional observations from a re-analysis of the deposited data

Results flagged for a closer look

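Among array control probe sets outside the comparisons, 25S ribosomal RNA gave a signal of 4209 on the 35S::AtC3H14 array and 361 on the wild-type array, a log2 ratio of 3.54. One of the GAPDH control probe sets, against the 3' end, gave 11622 on the 35S::AtC3H14 array and 5438 on the wild-type array, a log2 ratio of 1.10. Both were noted because they lay above the floor and were at least 2-fold higher than in wild type. Such control probe sets at least 2-fold lower were not looked for. Whether these differences between the arrays bear on the ratios of WES1 and IAA18 was not tested.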

How the results depend on the processing

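AtC3H14, WES1 and the difference between WES1 and IAA18, past 2-fold as deposited, kept their sign wherever an alternative gave a value. The scaling alternatives shift ratios by too little to reverse values of that size. The sign of other probe sets was not followed. Of 25 values of the 4 measured genes under alternatives, 19 stayed within the SD of 0.35 between probe sets of a gene. The 6 that moved were WES1 and IAA18 with the hybridization-control scaling (1.80 and -1.21), IAA29 with it (0.17), WES1 with the pseudocount (1.94), and GH3.3 with the pseudocount (0.86) and with no floor (2.44). With no floor, 4 of the 8 genes were higher, and their median was 1.57. Of 25 list genes, 7 were then higher and 2 lower. Of all 22746 probe sets, 3428 (15.1%) were higher and 2409 (10.6%) lower. With the pseudocount, whose construction draws dim ratios towards 0, the log2 ratio of AtC3H14 was 4.65 and the difference between WES1 and IAA18 2.54. Of 25 list genes, 1 was then higher and 1 lower. Of all 22746 probe sets, 504 were higher and 599 lower. With the hybridization-control scaling, which by construction lowers ratios by 0.52, AtC3H14 had 4.63. Only 3 of the 8 genes were then measured, and 1 was lower (IAA18). Of 8 measured list genes, 1 was higher and 1 lower, with a median of -0.33. Of 13862 measured probe sets, 257 were higher and 2285 lower. Under a floor at the 60th percentile, 1 of 4 measured list genes was higher. Of 9986 measured probe sets, 364 were higher and 534 lower. At 3-fold, 1 of 10 list genes was higher, and of 14469 probe sets 234 were higher and 242 lower. With so few genes measured, nothing is read from the counts of the 8 genes or the list. Probe sets naming several genes held 0 genes of the list, so that alternative gave no value, and with the higher floor 2 of the 8 genes were measured, too few for a median. No paired analysis was possible because each group had 1 array, and no array could be left out. Low signal is the limit for 6 of the 8 genes, which lay below the floor on at least 1 array.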
